A study of Homo sapiens with 8 samples.

Results

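Interferon-stimulated genes are genes that cells switch on when they sense type I interferon, and this account follows 44 of them through the depletion of the MLL/AF4 fusion in leukaemia cells. The genes were chosen by name, as type I interferon-induced genes and cytosolic RNA sensors, and every probe annotated to a listed symbol or to an older alias of it was used. Of the 44 genes, 42 had at least 1 probe, with 66 probes in all, among 18205 genes with a symbol on the arrays. USP18 and STAT2 were not analysed here. Of the 42, 28 genes had 1 probe and 14 had several. The cells were SEM, an established B-cell precursor acute lymphoblastic leukaemia line that carries the MLL/AF4 fusion gene, read on 8 Illumina bead arrays. They received siRNA to the fusion mRNA (siMLL/AF4) or a control siRNA (siCtrl) by electroporation every 2 days, at most 3 times, and RNA was taken on day 2, 4 and 6. Pulse controls that received no siRNA (MOCK) cover day 2 and day 4. There was a single array for every treatment and day, so a p-value here reflects how much arrays and days scatter and not how much independent cultures do.

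Type I interferons bind a receptor made of IFNAR1 and IFNAR2, and the kinases JAK1 and TYK2 pass the signal on. A complex that holds STAT2 and IRF9 then binds the interferon-stimulated response element in promoters and drives transcription of antiviral genes. The cytosolic sensors RIG-I (RIGI, formerly DDX58) and MDA5 (IFIH1) detect double-stranded RNA and start interferon production, and both are themselves interferon-induced.

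RefSeq promoter windows on GRCh38.p14 were found for 35 of the 44 genes, each running from 250 bases before a gene's start to 50 after it. The core of the response element was searched on both strands as GAAA, any 2 bases and GAAA again, which reads as TTTC, 2 bases and TTTC on the other strand, and overlapping matches were kept. It was in the windows of 24 of the 35 genes (68.6%), against 4.38% of all 27305 genes with a window. The core of the gamma-activated site, TTCNNNGAA, was in 11 of the 35 (31.4%), against 9.38% of all genes. The stretch of 160 bases before an annotated start is shown for 7 genes: IFI44, IFIT1 and IFIT3, which lead the differences below, ISG15 and OAS3, whose differences were largest on day 6, EPSTI1, which was measured in siMLL/AF4 cells alone on day 6, and LGALS3BP, which hardly differed. Each runs 5′ to 3′ along its gene, and capitals mark the core of the response element.
IFI44 (chr1:78649629-78649788, plus strand): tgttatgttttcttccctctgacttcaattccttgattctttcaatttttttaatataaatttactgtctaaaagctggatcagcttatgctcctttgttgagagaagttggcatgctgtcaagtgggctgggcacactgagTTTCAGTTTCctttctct
IFIT1 (chr10:89392463-89392622, plus strand): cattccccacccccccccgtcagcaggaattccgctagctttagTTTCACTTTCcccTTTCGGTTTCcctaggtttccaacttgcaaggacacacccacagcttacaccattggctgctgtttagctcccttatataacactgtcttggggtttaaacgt
IFIT3 (chr10:89327837-89327996, plus strand): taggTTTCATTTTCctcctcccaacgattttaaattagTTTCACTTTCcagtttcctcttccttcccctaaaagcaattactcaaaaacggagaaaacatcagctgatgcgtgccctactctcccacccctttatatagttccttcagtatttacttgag
ISG15 (chr1:1013337-1013496, plus strand): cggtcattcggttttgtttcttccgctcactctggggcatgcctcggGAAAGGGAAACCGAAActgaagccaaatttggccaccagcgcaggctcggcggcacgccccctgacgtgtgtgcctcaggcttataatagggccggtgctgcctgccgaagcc
OAS3 (chr12:112938314-112938473, plus strand): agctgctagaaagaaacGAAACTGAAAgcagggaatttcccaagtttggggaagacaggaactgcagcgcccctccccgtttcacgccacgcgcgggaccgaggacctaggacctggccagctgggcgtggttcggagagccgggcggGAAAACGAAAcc
EPSTI1 (chr13:42992242-42992401, minus strand): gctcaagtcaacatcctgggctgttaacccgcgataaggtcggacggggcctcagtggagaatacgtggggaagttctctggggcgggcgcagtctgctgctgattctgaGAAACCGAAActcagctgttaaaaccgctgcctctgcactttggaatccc
LGALS3BP (chr17:78979924-78980083, minus strand): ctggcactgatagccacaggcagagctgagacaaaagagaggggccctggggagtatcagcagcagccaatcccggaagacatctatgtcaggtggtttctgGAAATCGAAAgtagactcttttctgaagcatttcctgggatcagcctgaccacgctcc

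In IFIT1 the matches begin 116 and 103 bases before the start, in ISG15 they overlap and begin 113 and 107 bases before it, and in IFI44 the single match begins 18 bases before it. A match is a description of these letters and does not show that a factor binds there. Of the 24 genes with a match, 20 could be tested on the arrays, and their median difference on day 6 (siMLL/AF4 minus siCtrl, log2) was 1.75. The 10 tested genes with a window but no match had a median of 1.50 on that day, so genes of both kinds differed on day 6.

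**Figure D1:**
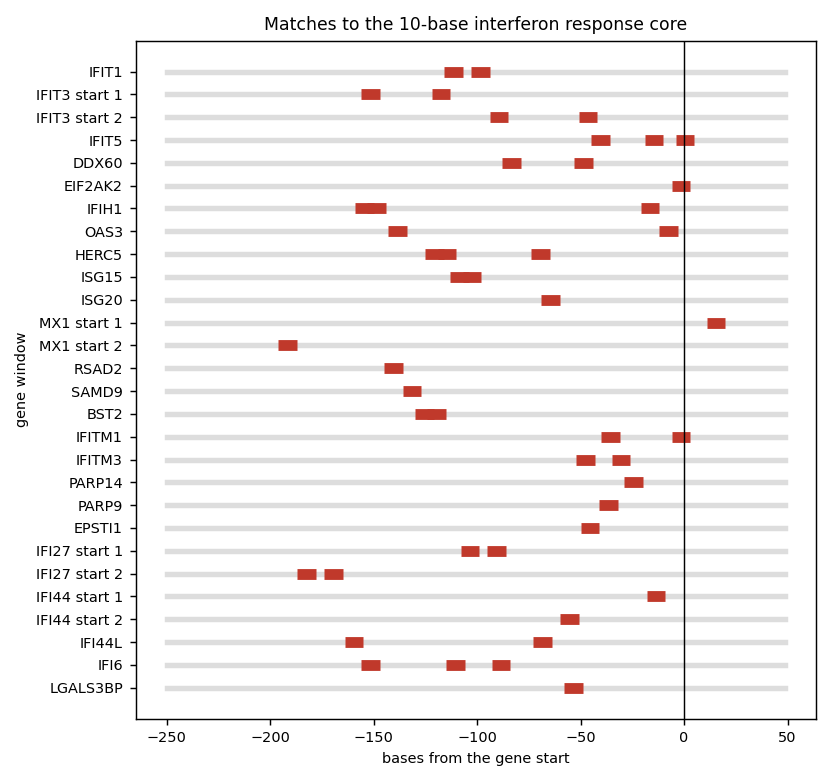
Positions of the matches to the response element core (red) in the promoter windows (grey, 250 bases before to 50 after the gene start) of the 24 interferon-stimulated genes with a match; the x axis is the distance from the start in bases, and genes with several windows that hold a match have 1 line each. In OAS3 the matches begin 143 and 12 bases before the start, and in EIF2AK2 the match begins 6 bases before it.

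The arrays were of 2 versions, an older one for the 6 arrays of day 2 and day 4 and a newer one for the day 6 pair, so differences are given within days, and day 6 and array version cannot be told apart. Where levels of all days are ranked together, or groups are said to overlap or not, the order crosses the versions. Levels are on a log2 scale. The deposited numbers were read as natural logs from their range, and on a base 2 reading each log2 value here would shrink to 0.693 of its size and fewer genes would reach 2-fold. Between 28.5% and 28.8% of the probes of an array hold the entry Null, given here as such and treated as missing. The siMLL/AF4 array of day 6 had the lowest median Spearman correlation with the older arrays (0.831, across probes), against 0.873 for the siCtrl array of day 6. KMT2A (MLL) differed (siMLL/AF4 minus siCtrl, log2) by -0.49, -0.55 and -0.53 on day 2, 4 and 6, and both AFF1 (AF4) probes were lower on every day. Against MOCK, KMT2A differed by 0.057 and 0.039 on day 2 and 4, and the AFF1 probes by 1.14 and -0.053 and by -0.60 and 0.13, so the partner genes of the fusion were not lower than MOCK throughout. Both genes are also transcribed outside the fusion, and whether these probes read the fusion mRNA was not tested. Among B-cell precursor markers, EBF1 had log2 levels from 10.91 to 11.99 and VPREB1 from 10.12 to 11.98 on the 8 arrays, while 8 of the 15 markers with a probe had a value on all 8 arrays. Of those 8, 4 were higher in siMLL/AF4 than in siCtrl cells on average over the days, with differences from -0.39 to 1.16. The others, PAX5, DNTT, RAG1, RAG2, CD24, BLNK and MS4A1, held Null entries at every probe. PAX5 was at most 5.63 and Null in both samples of day 6. The summed linear level of that list ranged from 16790 to 18892 in siMLL/AF4 cells, from 12452 to 15250 in siCtrl cells and from 13468 to 19413 in MOCK cells, and its part in the differences below was not tested. In such bulk samples, fewer cells with a transcript and less transcript per cell cannot be told apart.

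Of the 42 genes, 36 had a probe with no Null entry that was, on average, no dimmer than the median probe of either array version, and all 36 met that level in siMLL/AF4 cells and in siCtrl cells taken alone. Null counted as the lowest value here, so the median probe stood at 2.17 on the older and 3.51 on the newer version. Both lie below the median of measured values, 5.16. IFIT5, DHX58, OASL, IFI44L, IFI27 and EPSTI1 did not meet both conditions and are described by their values. Across the 36 genes the levels spanned a wide range. IFITM2, a membrane protein that blocks virus entry, had the highest mean over the 8 arrays at 12.59, and RSAD2 (viperin), an antiviral enzyme, had the lowest at 4.00. Levels are not compared between genes beyond this, because each probe has its own brightness.

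**Figure D2:**
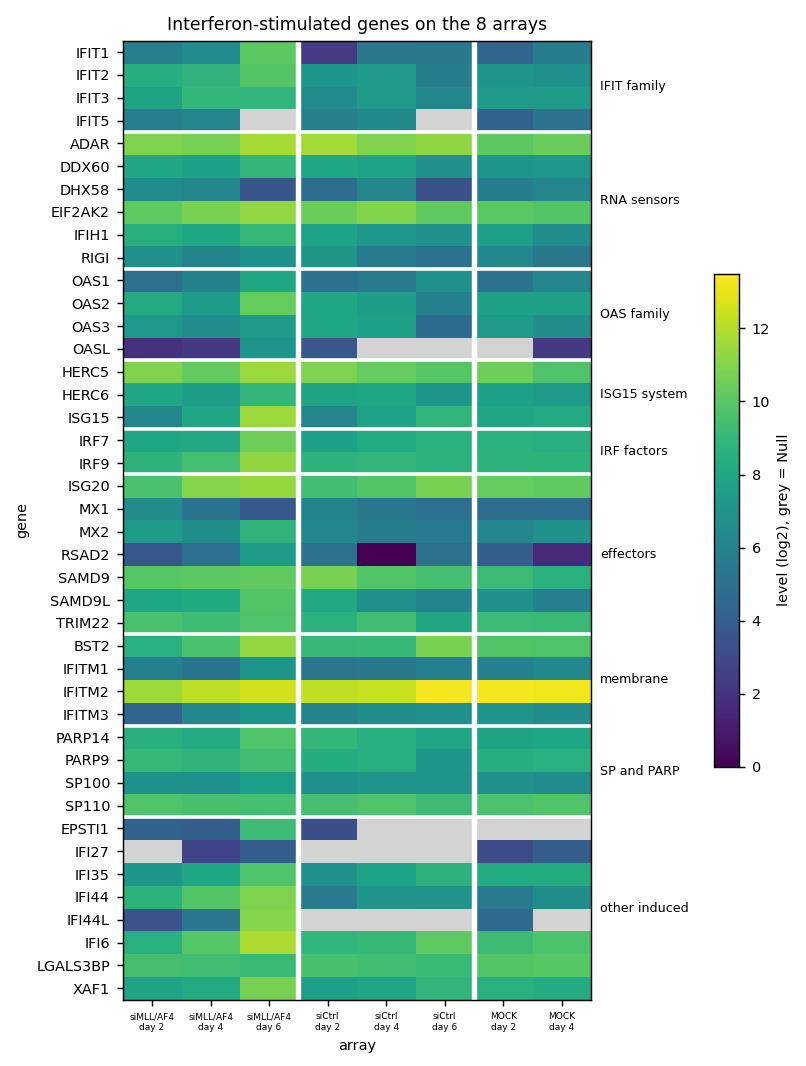
Level (log2) of each of the 42 interferon-stimulated genes with a probe on the 8 arrays, grouped by role, with Null in grey; each gene is shown by its tested probe or, where none was tested, by the probe with the most values. The siMLL/AF4 column of day 6 holds the highest of the 8 levels for IFIT1 (10.09), ISG15 (11.49), OAS2 (10.32) and IFI44L (11.06). This order sets the newer array version beside the older one.

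The main comparison, of siMLL/AF4 with siCtrl, asks which genes change when the fusion is depleted. Averaged over the 3 days, 31 of the 36 genes were higher in siMLL/AF4 cells and 5 were lower, against 49.2% of all 9096 genes tested that were higher. The median difference of the 36 genes was 0.66 (log2), against -0.0054 for all genes. It rested on day 6: without that pair of arrays the median was 0.12 over 38 testable genes, of which 25 were higher, against a median of 0.040 and 5819 of 10855 genes. At an unadjusted p under 0.05 (limma), 5 of the 38 were then higher and 1 lower, against 3.50% and 2.62% of all genes. With limma and Benjamini-Hochberg adjustment, 0 of 9096 genes passed at 0.05 (background 0%, smallest adjusted p = 0.310). At an unadjusted p under 0.05 (limma) there were 6 of the 36 genes, against 7.39% of all genes. All 6 were higher, IFI44, IFIT1, IFIT2, IFIT3, MX2 and IFIH1, against 3.90% of all genes that were higher at that level, and 0 of the 36 were lower, against 3.49%. Under other settings some passed (limma). They were IFI44, IFIT2 and IFIT3 with an offset of 64 added to the linear values (0.456% of all genes called), IFI44 and IFIT3 with a trended robust variance (0.352%), and IFI44 with an offset of 16 (0.0333%) or with the filter at the 70th percentile (0.260%).

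By day the genes differed in different numbers. On day 2, 22 of the 36 were higher in siMLL/AF4 cells and 6 were at least 2-fold higher, against 55.0% and 7.42% of all genes. On day 4, 19 were higher and 7 were at least 2-fold higher, against 48.1% and 5.46% of all genes. On day 6, 33 were higher and 26 were at least 2-fold higher, against 44.8% and 7.96% of all genes. At least 2-fold lower were 2 genes on day 2, 1 on day 4 and 1 on day 6, against 7.08%, 4.46% and 11.0% of all genes. The median difference of the 36 genes was 0.093, 0.18 and 1.82 (log2) on day 2, 4 and 6, and that of all genes was 0.091, -0.019 and -0.068. Single days have no replicate and no test. Over all probes of the 42 genes, 51 had a value in both samples of day 6, and 47 of them (92.2%) were higher in siMLL/AF4 cells, against 46.0% of all probes on the arrays. A further 8 probes, of EPSTI1, IFI27, IFI44L, OAS1, OAS2 and OASL, had a value in siMLL/AF4 cells and Null in siCtrl cells on that day, against 1745 of all 27210 probes with 1 symbol. The reverse held for 1 probe, of IFIT1, against 2040 of all 27210 probes. Of 9 genes with several probes measured in both samples on day 6, the probes of 8 differed in the same direction, and those of SP100 did not. On day 2 the probes did so for 4 of 11 such genes, the exceptions being IFI6, IRF7, OAS1, OAS3, SP100, SP110 and XAF1, and on day 4 for 7 of 11, the exceptions being OAS2, SP100, SP110 and XAF1. Values and counts per gene are those of the tested probe unless another is named.

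**Figure D3:**
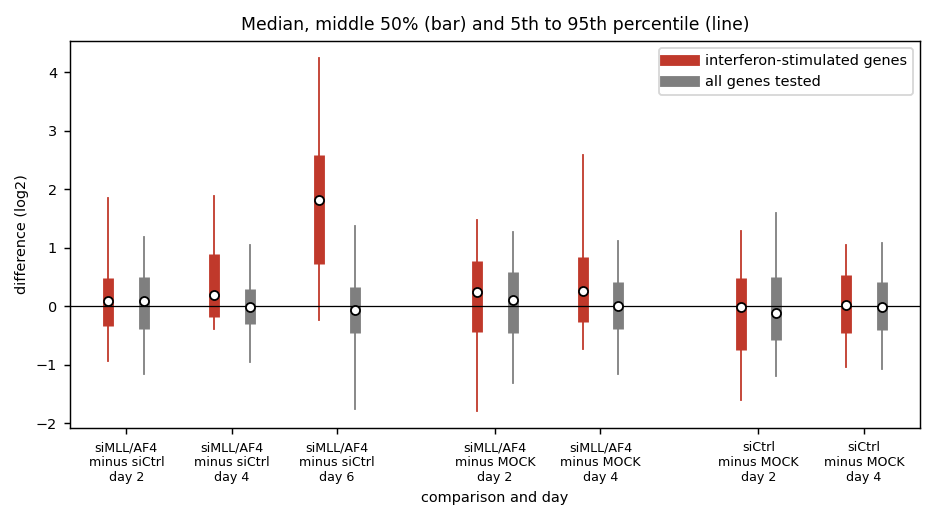
Differences in log2 level by comparison and day, for the 36 interferon-stimulated genes (red) and for all genes tested (grey); points are medians, bars the middle 50% and lines the range from the 5th to the 95th percentile. On day 6 the median of siMLL/AF4 minus siCtrl was 1.82 for the interferon-stimulated genes and -0.068 for all genes, while the other medians of the interferon-stimulated genes lay between -0.019 and 0.26.

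Over the 3 days together, 12 of the 36 genes were higher in siMLL/AF4 cells than in siCtrl cells on every day, against 14.6% of all genes. They were IFI44, IFIT1, IFIT2, IFIT3, MX2, IFIH1, PARP9, IRF9, ISG15, XAF1, ISG20 and IFI35, with the second XAF1 probe in the other direction on day 2 and 4. LGALS3BP and IFITM2 were lower on every day, 2 of 36, against 14.6% of all genes. Of the 12 genes, 4 were at least 2-fold higher on every day, IFI44, IFIT1, IFIT2 and IFIT3, against 0.638% of all genes. In 7 genes every siMLL/AF4 array lay above every siCtrl array, against 3.89% of all genes, and these were IFI44, IFIT1, IFIT2, IFIT3, MX2, IFIH1 and PARP9. In 0 of the 36 did every siMLL/AF4 array lie below every siCtrl array, against 2.89%. Both of these counts set arrays of the 2 versions beside each other.

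**Figure D4:**
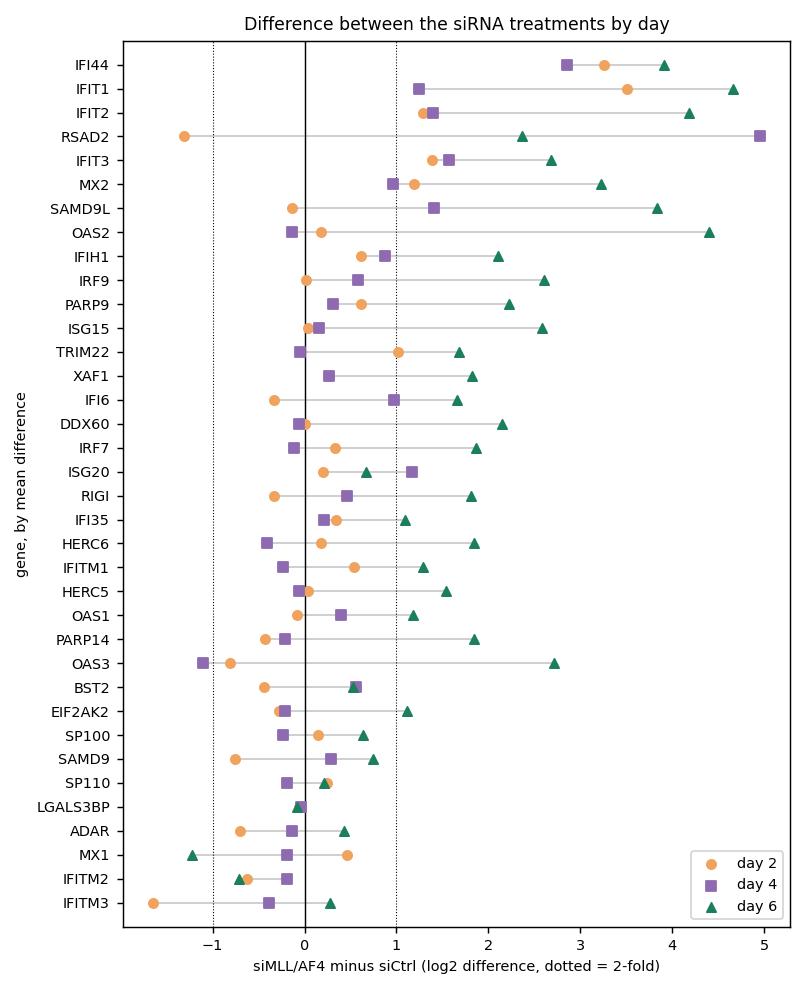
Difference in log2 level, siMLL/AF4 minus siCtrl, on day 2 (circles), day 4 (squares) and day 6 (triangles) for the 36 interferon-stimulated genes, ordered by their mean over the days; dotted lines mark 2-fold. IFI44, IFIT1, IFIT2 and IFIT3 lie beyond 2-fold higher on each day, and day 6 holds the highest of the 3 differences for most genes, with RSAD2, ISG20 and MX1 among the exceptions.

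The IFIT proteins bind foreign RNA and block its translation, and the 3 tested members of this family held some of the largest differences. IFIT1 had log2 levels of 5.83, 6.57 and 10.09 in siMLL/AF4 cells on day 2, 4 and 6, against 2.33, 5.33 and 5.43 in siCtrl cells on the same days and 4.43 and 5.73 in MOCK cells on day 2 and 4. IFIT2 had 8.41, 8.76 and 9.88 in siMLL/AF4 cells, against 7.12, 7.36 and 5.70 in siCtrl cells and 7.03 and 6.81 in MOCK cells. IFIT3 had 7.89, 8.94 and 8.90 in siMLL/AF4 cells, against 6.51, 7.37 and 6.21 in siCtrl cells and 7.22 and 7.34 in MOCK cells. For all 3 genes the siMLL/AF4 arrays were the highest, above both the siCtrl and the MOCK arrays, and the groups did not overlap. The mean differences between the siRNA treatments were 3.14 ± 0.67 for IFIT1, 2.29 ± 0.64 for IFIT2 and 1.88 ± 0.34 for IFIT3 (log2, SE, 3 days), or 8.79-fold, 4.88-fold and 3.67-fold, with unadjusted p = 0.00554, 0.0158 and 0.00265 and adjusted p = 0.506, 0.586 and 0.475 (limma). Without day 6 the difference of IFIT2 was 1.34 ± 0.34 (SE). The siCtrl level of IFIT1 on day 2, 2.33, lay below the 25th percentile of that array, 3.51. The second IFIT1 probe was Null in siMLL/AF4 cells on day 2 and 6 and had 3.81 on day 4. It had -0.26, Null and 2.09 in siCtrl cells on day 2, 4 and 6, and 3.22 and 3.01 in MOCK cells. The other 2 probes of IFIT3 were also higher in siMLL/AF4 cells than in siCtrl cells on each day. IFIT5, a further member, had 5.77 and 6.15 in siMLL/AF4 cells on day 2 and 4, against 5.89 and 6.44 in siCtrl cells and 4.20 and 5.02 in MOCK cells, and was Null in both samples of day 6. Its siRNA-treated cells of both kinds lay above MOCK, and those of siCtrl were slightly the higher.

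The RNA sensors and RNA-binding enzymes differed less. IFIH1 had 8.45, 8.06 and 9.004 in siMLL/AF4 cells, against 7.83, 7.18 and 6.90 in siCtrl cells and 7.63 and 6.64 in MOCK cells. Its siMLL/AF4 arrays all lay above the others, with a mean difference from siCtrl of 1.20 ± 0.36 (SE), unadjusted p = 0.0216 and adjusted p = 0.586 (limma), and 0.75 ± 0.35 without day 6. RIGI had 6.81, 6.09 and 6.88 in siMLL/AF4 cells, against 7.14, 5.62 and 5.07 in siCtrl cells and 6.22 and 5.43 in MOCK cells, so its groups overlapped. DDX60, a helicase that supports RIG-I signalling, had 8.04, 7.73 and 8.95 in siMLL/AF4 cells, against 8.03, 7.80 and 6.81 in siCtrl cells and 7.14 and 7.21 in MOCK cells. On day 2 and 4 it differed little between the siRNA treatments, and both lay above MOCK. EIF2AK2 (PKR), a kinase that halts translation on binding double-stranded RNA, differed by -0.28, -0.21 and 1.11 on day 2, 4 and 6 (siMLL/AF4 minus siCtrl). ADAR, which edits adenosine in double-stranded RNA, was among the brightest of the genes, between 10.11 and 11.68 on the 8 arrays, and differed by -0.70, -0.13 and 0.43. DHX58 (LGP2), a regulator of the other sensors, had 6.55, 6.18 and 3.64 in siMLL/AF4 cells, against 4.82, 6.17 and 3.37 in siCtrl cells and 5.74 and 6.16 in MOCK cells. Its difference between the siRNA treatments was largest on day 2, at 1.73, and its day 6 pair was on average below the median probe.

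The OAS genes encode synthetases that make an oligoadenylate messenger on binding double-stranded RNA. OAS2 had 8.27, 7.41 and 10.32 in siMLL/AF4 cells, against 8.10, 7.55 and 5.93 in siCtrl cells and 7.72 and 7.73 in MOCK cells. OAS3 had 7.24, 6.62 and 7.45 in siMLL/AF4 cells, against 8.05, 7.72 and 4.74 in siCtrl cells and 7.38 and 6.68 in MOCK cells. OAS1 had 4.99, 5.93 and 8.06 in siMLL/AF4 cells, against 5.08, 5.53 and 6.88 in siCtrl cells and 5.14 and 6.12 in MOCK cells. In all 3 genes the groups overlapped over the days, and the differences on day 6 were 4.40, 2.72 and 1.18 for OAS2, OAS3 and OAS1. OAS3 was lower in siMLL/AF4 cells on day 2 and 4, by 0.81 and 1.10. The mean differences over the days were 1.48 ± 0.95, 0.27 ± 0.81 and 0.50 ± 0.32 (SE) for OAS2, OAS3 and OAS1, and none passed the test (limma, adjusted p from 0.815 to 0.971). Without day 6 the difference of OAS2 was 0.021 ± 0.35 (SE). OASL, a related protein without that enzyme activity, had 1.98, 2.32 and 6.97 in siMLL/AF4 cells at one probe, against 3.65 on day 2 and Null on both later days in siCtrl cells, and Null and 2.31 in MOCK cells. Its other probe was Null in siMLL/AF4 cells on every day. That probe had 5.07, 1.21 and Null in siCtrl cells, and 2.55 and Null in MOCK cells.

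ISG15, a ubiquitin-like protein joined to other proteins during the interferon response, had 6.19, 7.93 and 11.49 in siMLL/AF4 cells, against 6.14, 7.78 and 8.91 in siCtrl cells and 8.08 and 8.24 in MOCK cells. The siRNA treatments were 0.043 and 0.15 apart on day 2 and day 4, both below MOCK, and 2.58 apart on day 6. HERC5, the ligase that attaches ISG15, differed by 0.042, -0.055 and 1.53 on day 2, 4 and 6, and its relative HERC6 by 0.18, -0.40 and 1.85. All 3 genes were thus at least 2-fold higher in siMLL/AF4 cells on day 6 and less than 2-fold apart before it. Their mean differences lay between 0.51 and 0.93, with a smallest adjusted p of 0.797 (limma). Without day 6 that of ISG15 was 0.098 ± 0.34 (SE).

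IRF9, the DNA-binding part of the complex that reads the response element, had 8.74, 9.48 and 11.28 in siMLL/AF4 cells, against 8.72, 8.90 and 8.68 in siCtrl cells and 8.74 and 8.71 in MOCK cells. On day 2 the 3 treatments were almost level. The siCtrl cells stayed near that level on day 4 and 6 and the MOCK cells on day 4, with no MOCK array for day 6. The day 6 levels come from the newer array version. The mean difference between the siRNA treatments was 1.07 ± 0.54 (SE), adjusted p = 0.749 (limma), and 0.30 ± 0.37 without day 6. IRF7, a factor that raises interferon gene transcription, had 8.07, 8.14 and 10.50 in siMLL/AF4 cells, against 7.74, 8.25 and 8.63 in siCtrl cells and 8.63 and 8.45 in MOCK cells. Its groups overlapped, with MOCK above siMLL/AF4 on both of their shared days.

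**Figure D5:**
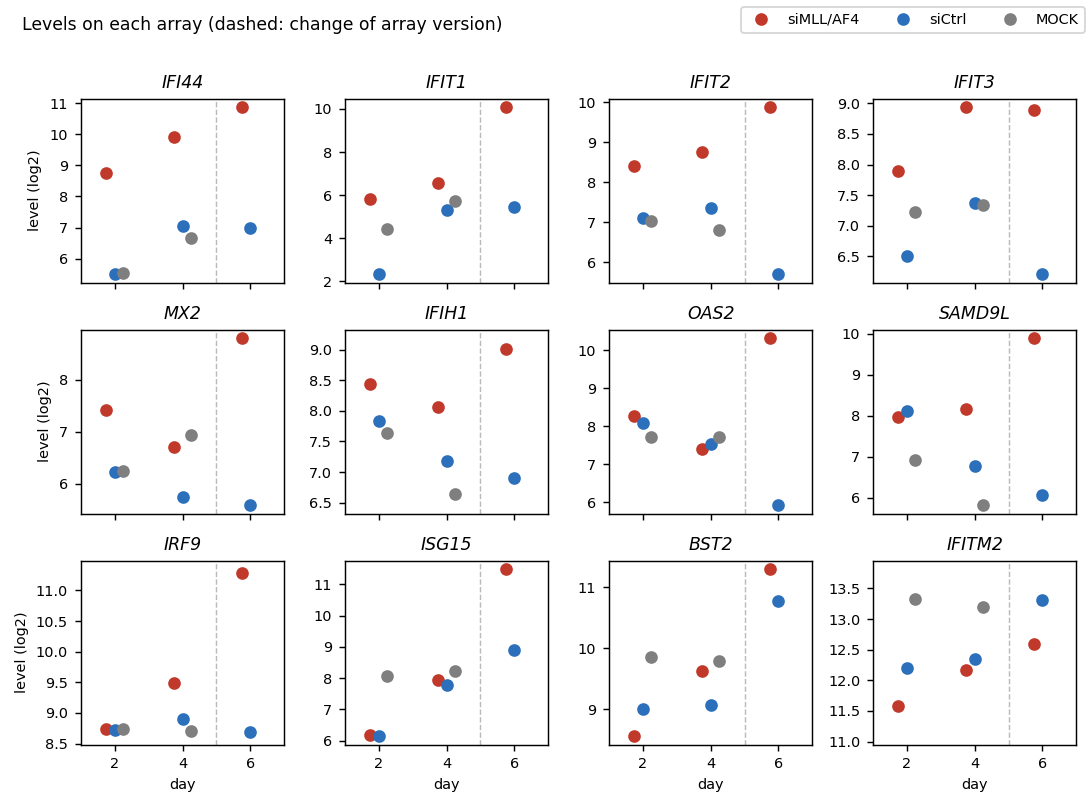
Levels (log2) of 12 interferon-stimulated genes on each array by day, for siMLL/AF4 (red), siCtrl (blue) and MOCK (grey, day 2 and 4); each point is 1 array and the dashed line marks the change of array version. IFI44 stood apart in siMLL/AF4 cells from day 2 (8.75, against 5.50 in siCtrl cells), whereas OAS2, IRF9 and ISG15 stood apart from siCtrl mainly on day 6.

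Among the antiviral effectors, MX2, a dynamin-like GTPase that restricts viruses at the nuclear pore, had 7.42, 6.70 and 8.81 in siMLL/AF4 cells, against 6.23, 5.74 and 5.58 in siCtrl cells and 6.24 and 6.94 in MOCK cells. The siMLL/AF4 arrays lay above all siCtrl arrays but overlapped with MOCK, which was higher on day 4. The mean difference from siCtrl was 1.79 ± 0.50 (SE), unadjusted p = 0.0163 and adjusted p = 0.586 (limma), and 1.08 ± 0.35 without day 6. MX1, its relative, went the other way on day 6 at its 1 probe, with 6.51, 5.21 and 3.71 in siMLL/AF4 cells, against 6.05, 5.40 and 4.94 in siCtrl cells and 4.83 and 4.86 in MOCK cells. MX1 was the only one of the 36 genes that was at least 2-fold lower in siMLL/AF4 cells on day 6, and its level was among the dimmest of the tested genes. RSAD2 had 3.71, 4.94 and 7.47 in siMLL/AF4 cells, against 5.02, -0.01 and 5.10 in siCtrl cells and 4.11 and 1.62 in MOCK cells. Its differences of -1.31, 4.95 and 2.37 gave a mean of 2.00 ± 1.17 (SE), or 0.53 without day 4, and the siCtrl value of day 4 was the lowest of its 8 levels. SAMD9L, an interferon-induced restriction factor, had 7.98, 8.18 and 9.90 in siMLL/AF4 cells, against 8.12, 6.77 and 6.06 in siCtrl cells and 6.92 and 5.82 in MOCK cells. It differed between the siRNA treatments by -0.14, 1.40 and 3.84, with a mean of 1.70 ± 0.77 (SE) and adjusted p = 0.716 (limma), and 0.63 ± 0.51 without day 6. Its neighbour SAMD9 differed by -0.76, 0.29 and 0.74. TRIM22, an antiviral ubiquitin ligase, differed by 1.02, -0.047 and 1.68. ISG20, an exonuclease that degrades RNA, differed by 0.20, 1.17 and 0.66 and was one of the few genes whose day 4 difference was the largest.

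The membrane proteins were the role group with the lowest median difference, at -0.15 over the days. IFITM2 had 11.58, 12.16 and 12.59 in siMLL/AF4 cells, against 12.20, 12.35 and 13.30 in siCtrl cells and 13.33 and 13.19 in MOCK cells. It was lower than siCtrl on every day and lower than MOCK on both shared days, with a mean difference from siCtrl of -0.51 ± 0.24 (SE) and adjusted p = 0.736 (limma). IFITM3 differed between the siRNA treatments by -1.65, -0.39 and 0.28, and IFITM1 by 0.54, -0.23 and 1.28. IFITM1, IFITM2 and IFITM3 are related genes, and whether each probe reads its own gene alone was not tested. BST2 (tetherin), which holds budding virus at the cell surface, had 8.56, 9.62 and 11.30 in siMLL/AF4 cells, against 9.004, 9.07 and 10.77 in siCtrl cells and 9.86 and 9.79 in MOCK cells, so its groups overlapped.

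PARP9, a partner in interferon-dependent ADP-ribosylation, had 8.98, 8.82 and 9.37 in siMLL/AF4 cells, against 8.37, 8.50 and 7.14 in siCtrl cells and 8.39 and 8.57 in MOCK cells. Its siMLL/AF4 arrays lay above all others at this probe, with a mean difference from siCtrl of 1.05 ± 0.44 (SE), adjusted p = 0.681 (limma), and 0.46 ± 0.35 without day 6. A second PARP9 probe was also higher than siCtrl on each day, but its groups overlapped. It had 5.43, 5.05 and 8.49 in siMLL/AF4 cells, against 4.14, 1.03 and 6.31 in siCtrl cells and 5.20 and Null in MOCK cells. PARP14, of the same family, differed by -0.43, -0.21 and 1.85 on day 2, 4 and 6. SP100 and SP110, proteins of nuclear bodies, differed by at most 0.64 on any day at their tested probes. Other probes of SP100 disagreed with the tested one on day 2, 4 and 6, and those of SP110 on day 2 and day 4.

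The remaining genes are known mainly as induced by interferon. IFI44 had 8.75, 9.91 and 10.88 in siMLL/AF4 cells, against 5.50, 7.05 and 6.97 in siCtrl cells and 5.54 and 6.65 in MOCK cells. The siMLL/AF4 arrays all lay above the rest, by 3.25, 2.86 and 3.90 over siCtrl on day 2, 4 and 6, and siCtrl and MOCK were close. IFI44 had the smallest p among the 36 genes (limma, unadjusted p = 9.27e-05, adjusted p = 0.310, mean difference 3.34 ± 0.29 SE). IFI44L, a paralogue that lies next to it, had 3.44, 5.32 and 11.06 in siMLL/AF4 cells at its brighter probe, against Null on all 3 days in siCtrl cells and 4.62 and Null in MOCK cells. At its other probe it had 1.45, Null and 8.17 in siMLL/AF4 cells, against Null, Null and 4.92 in siCtrl cells. The MOCK cells had 1.04 and Null at that probe. With Null set to the 25th percentile of the array, IFI44L differed by 3.13 ± 1.44 (SE) and EPSTI1 by 2.50 ± 1.04 (SE), with adjusted p = 0.700 and 0.660 (limma). EPSTI1 had 4.32, 4.11 and 9.23 in siMLL/AF4 cells, against 3.24, Null and Null in siCtrl cells and Null on both days in MOCK cells. IFI27, a mitochondrial protein strongly induced in other settings, was dim or Null throughout, at most 4.04. IFI6, an endoplasmic reticulum protein that restrains cell death and flavivirus replication, differed by -0.33, 0.97 and 1.66 on day 2, 4 and 6. XAF1, a promoter of apoptosis, differed by 0.26, 0.27 and 1.82 at the brighter probe, and by -1.45, -1.16 and 1.65 at the other, so its probes disagreed on day 2 and 4. IFI35 differed by 0.34, 0.22 and 1.09. LGALS3BP, a secreted glycoprotein, had 9.54, 9.38 and 9.09 in siMLL/AF4 cells, against 9.59, 9.43 and 9.17 in siCtrl cells and 9.89 and 10.02 in MOCK cells. It differed by no more than 0.082 between the siRNA treatments on any day, and MOCK was above both.

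The growth of the difference with time was tested as its change per day over the 3 pairs. For 32 of the 36 genes the fitted change was positive, against 43.1% of all genes. The median was 0.37 per day (log2), against -0.041 for all genes. With 3 evenly spaced days the estimate rests on day 2 and day 6, and day 4 bears only on its spread. A positive change is thus not a steady rise. On day 2, 4 and 6 the difference was -0.81, -1.10 and 2.72 for OAS3 and 0.18, -0.13 and 4.40 for OAS2. That of SAMD9L rose at each step, from -0.14 to 1.40 and 3.84. No gene passed (limma, 0 of 9096 at an adjusted p under 0.05, background 0%), and 12 of the 36 had a positive change at an unadjusted p under 0.05, against 4.74% of all genes. MX1 had a negative one, -0.42 ± 0.14 (SE) per day, against 7.31% of all genes that were negative at that level. SAMD9L led by p, at 0.99 ± 0.15 (SE) per day with adjusted p = 0.284 (limma). OAS2 changed by 1.06 ± 0.35, OAS3 by 0.88 ± 0.31, IFIT2 by 0.72 ± 0.22, IRF9 by 0.64 ± 0.17 and ISG15 by 0.63 ± 0.21 (SE) per day, values that did not pass the test. IFI44 changed by 0.16 ± 0.17 per day. The model has 1 residual degree of freedom and its last point is the only pair on the newer array version.

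The comparison of siMLL/AF4 with MOCK shows the level of these genes against cells without any siRNA. On day 2, 21 of the 36 genes were higher in siMLL/AF4 cells 6 were at least 2-fold higher and 5 at least 2-fold lower, against 55.6%, 9.58% and 9.98% of 8886 genes tested. On day 4, 22 were higher, 7 at least 2-fold higher and 2 at least 2-fold lower, against 49.9%, 6.75% and 6.77%. IFI44, IFIT2 and SAMD9L were at least 2-fold higher on both days, 3 of 36, against 2.52% of all genes. Over both days, 19 genes were higher on each and 12 lower on each, against 35.8% and 30.2%. Tested on day 2 and day 4 alone, 25 of 38 genes were higher, with a median of 0.40 (log2), against 0.033 for all genes, and 0 of 10230 genes passed (limma, smallest adjusted p = 0.292). At an unadjusted p under 0.05 there were 8 higher, against 8.70% of all genes, namely IFI44 at 3.23, IFIT2 at 1.66, IFIT5 at 1.36, IFIH1 at 1.11, SAMD9L at 1.71, IFIT3 at 1.13, SAMD9 at 1.15 and DDX60 at 0.71. IFITM2 was lower at that level, by -1.39 ± 0.29 (SE), against 7.37% of all genes. With all 8 arrays in an additive model, in which the siRNA pair of day 6 also bears on the estimate, 25 of 36 genes were higher and 11 lower, against 50.3% and 49.7% of all genes, with a median of 0.70, and IFI44 had the smallest adjusted p, 0.0931 (limma), with 0 of 8886 genes called (background 0%).

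The comparison of siCtrl with MOCK shows what the control siRNA carried with it, and it shares its MOCK arrays with the comparison above. On day 2, 15 of the 36 genes were higher in siCtrl cells and on day 4, 19 were, against 44.6% and 49.1% of all genes. On both days, 13 were higher and 15 lower, against 34.0% and 40.2%. At least 2-fold higher were 5 on day 2 and at least 2-fold lower 4, against 12.2% and 8.41%, the lower ones including ISG15 and IFIT1. On day 4, 3 were at least 2-fold higher and 2 at least 2-fold lower, against 6.30% and 6.01%. The median differences were -0.019 and 0.015 (log2), against -0.11 and -0.013 for all genes. SAMD9 was the 1 gene at least 2-fold higher on both days, with 10.72 and 9.81 in siCtrl cells, against 9.19 and 8.56 in MOCK cells (background 3.20%). On day 2 and day 4 alone, 0 of 10230 genes passed (limma, smallest adjusted p = 0.242). Of 38 genes, 5 were higher at an unadjusted p under 0.05, IFIT5, SAMD9, OAS3, PARP14 and DDX60, against 10.5% of all genes, and IFITM2 and IFI35 were lower, against 8.04%. With all 8 arrays 14 of 36 genes were higher and 22 lower, against 48.0% and 52.0% of all genes. The median was then -0.42, opposite in sign to the 0.024 of day 2 and day 4 alone, 4 of the 36 had an unadjusted p under 0.05 against 19.9% of all genes, and 0 of 8886 genes passed (limma, smallest adjusted p = 0.210).

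Other genes of the interferon pathway were read from lists of ligands, receptors and sensors. Of 21 interferon genes with a probe, IFNA10 alone had a value on all 8 arrays, and it was below the median probe in at least 1 array version. IFNB1, the first interferon made by many cells, had a value on 3 arrays, 1.54 in siMLL/AF4 cells on day 6, 1.45 in siCtrl cells on day 2 and -0.24 in MOCK cells on day 2, and was Null elsewhere. Of 11 tested genes of receptors and signalling, 0 passed (limma, smallest adjusted p = 0.586). Over the days 6 were higher, against 49.2% of all genes, and the median difference was 0.045. IFNAR1 differed by -0.11 ± 0.31, IFNAR2 by -0.47 ± 0.28, JAK1 by 0.14 ± 0.25 and TYK2 by 0.045 ± 0.23 (log2, SE). SOCS3, a feedback inhibitor of cytokine receptors, had 3.55, 4.41 and 5.93 in siMLL/AF4 cells, against -0.02, 3.39 and 4.55 in siCtrl cells and Null and 2.31 in MOCK cells. It was higher by 1.99 ± 0.55 (SE), unadjusted p = 0.0154 (limma). Its difference was largest on day 2, at 3.57, where the siCtrl level lay below the 25th percentile of that array, 3.51. At a second SOCS3 probe, Null in both samples of day 4, it was higher by 0.97 on day 2 and 1.27 on day 6. Of 17 tested genes of nucleic acid sensing, 0 passed (limma, smallest adjusted p = 0.553). Over the days 8 were higher, against 49.2% of all genes, and the median was -0.0086. AIM2, a sensor of cytosolic DNA, was higher by 1.35 ± 0.32 and TBK1, the kinase that activates IRF3, by 0.75 ± 0.25, whereas CGAS, which makes the messenger for STING, differed by -0.98 ± 0.37 (SE). On day 6, when 26 of the 36 interferon-stimulated genes were at least 2-fold higher, 0 of these 17 genes were at their tested probes, against 7.96% of all genes. At least 2-fold lower were 2 of the 17, against 11.0% of all genes. Other probes of MAVS and ZC3HAV1 were higher on that day by 1.99 and 1.41, against -0.97 and 0.27 at the tested ones.

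Markers of other blood cells were read on the same arrays. Of 7 markers of plasmacytoid dendritic cells with a probe, which are the main interferon producers of blood, 1 had a value on all 8 arrays, and CLEC4C was Null at both probes in siMLL/AF4 cells on day 6. On that day SIGLEC6 had 7.90 in siMLL/AF4 cells, against 6.06 in siCtrl cells, and PTCRA had 7.19 in siMLL/AF4 cells, against 3.85 in siCtrl cells. IL3RA, the marker with a value on all 8 arrays, had 3.35 in siMLL/AF4 cells on day 6, against 4.59 in siCtrl cells. NRP1 differed on day 6 by -2.20 at its tested probe and by 0.42 at the other. Of the 3 markers tested, 1 was higher on day 6 and 2 were at least 2-fold lower, against 44.8% and 11.0% of all genes. The summed linear level of the 7 markers ranged from 124 to 428 in siMLL/AF4 cells, from 99.3 to 194 in siCtrl cells and from 71.9 to 103 in MOCK cells. Of 11 myeloid markers with a probe, 2 had a value on all arrays, and their sum ranged from 523 to 1990 in siMLL/AF4 cells, from 469 to 1588 in siCtrl cells and from 414 to 718 in MOCK cells. LYZ, the myeloid lysozyme gene, had 7.21, 7.49 and 10.42 in siMLL/AF4 cells, against 5.83, 6.82 and 9.27 in siCtrl cells and 6.42 and 7.54 in MOCK cells, so on each day it was higher in siMLL/AF4 cells than in siCtrl cells. CSF1R, the other myeloid marker with a value on all arrays, differed between them by 0.57, -1.40 and -1.41 on day 2, 4 and 6. Of 9 T and NK cell markers with a probe, 2 had a value on all arrays, and their sum ranged from 347 to 1488 in siMLL/AF4 cells, from 528 to 1598 in siCtrl cells and from 957 to 990.1 in MOCK cells. GZMA, a granzyme of T and NK cells, differed by -1.50 between siMLL/AF4 and siCtrl on average, and NKG7 by -0.024. The part of these markers in the differences of the interferon-stimulated genes was not tested.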

How the data were processed

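Biotin-labelled total RNA from 8 SEM samples was read on Illumina bead arrays. GenomeStudio made the values, per the submitters' processing notes; how they were corrected for background and normalized is not given in the sources used here. Their unit is unstated too. From their range the deposited numbers were read as natural log (ln) levels, then divided by the natural log of 2. On that scale all 8 arrays shared the same lowest (-3.21) and highest level (15.24) and a median of 5.16. Their distributions had thus been matched across both array versions. Null was treated as missing. Symbols came from the platform annotation, updated by Entrez identifier through RefSeq. Each gene was tested through its brightest probe that had no Null on the arrays used and was on average no dimmer than the median probe of each array version, with Null counted as the lowest value there. limma 3.58.1 in R 4.3.3 (lmFit, eBayes, two-sided, threshold 0.05) used time point as a block, on the 6 siRNA arrays or on all 8. In the 8-array model the day 6 siRNA pair enters the MOCK estimates, so day 2 and day 4 alone were added after seeing the data. The brightest probe was chosen anew in each fit: those of OAS1 and SP110 differ between the 6- and 8-array fits, and those of OAS1, SP110 and ADAR between the 8 arrays and day 2 and 4 alone. Arrays with the same number share a harvest day, per the labels, which is the block. Alternatives changed the normalization, offset, filter, probe choice, variance model, control and replicates. The models were tested on simulated data, where 87.5% of shifts of 3 (log2) but 0% of shifts of 1 or 2 passed in the main comparison of 9096 genes. Array values are printed for genes with the largest mean differences and for their role groups. The genes and lists were chosen with earlier results of these data known. Figures were drawn with matplotlib 3.10.9.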

Additional observations from a re-analysis of the deposited data

How the results depend on the processing

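Values below are log2 differences, or counts of interferon-stimulated genes that passed at an adjusted p of 0.05 (limma). The main analysis called 0 in each of the 4 comparisons. For siMLL/AF4 minus siCtrl, the offset of 64 called 3, the trended robust variance 2, and the offset of 16 and the filter at the 70th percentile 1 each. Of all genes tested they called 41 of 8988, 32 of 9096, 3 of 9016 and 19 of 7308. These settings tested 36 interferon-stimulated genes each, but the filter at the 70th percentile tested 30. For siMLL/AF4 minus MOCK these settings, in the same order, called 5, 3 and 1 of 36 and 2 of 31, among them IFITM2 as lower under all but the offset of 16. Of all genes tested they called 420 of 8852, 375 of 8886, 4 of 8862 and 97 of 7307. For the change per day they called 11, 9 and 5 of 36 and 11 of 30. Of all genes tested they called 349 of 8988, 386 of 9096, 223 of 9016 and 435 of 7308. Setting day 6 against the mean of day 2 and day 4 called 1 of 36, OAS2, beside 47 of 9096 genes. For siCtrl minus MOCK none of the settings run called a gene. The cause of these gains was not tested. Without the replicate block 0 genes were called in the 3 comparisons fitted that way, and the median of siMLL/AF4 minus siCtrl stayed at 0.66. That median could not move, because both siRNA treatments had 1 array on each day. Signs turned for some genes, among them ISG15 at -0.69 and BST2 at -0.65 against MOCK in the main analysis. With MOCK replacing siCtrl on day 2 and 4, siMLL/AF4 minus siCtrl became 0.52 for ADAR, -0.31 for BST2, -0.11 for IFI35 and 0.27 for MX1, and with the mean of siCtrl and MOCK it became 0.19 for ADAR and -0.047 for BST2. With the offset of 64, siCtrl minus MOCK was -0.0018 for HERC6 and -0.059 for IFI44, and siMLL/AF4 minus MOCK was 0.021 for IFI6, or 0.00080 with the offset of 16. With the mean of a gene's probes, siCtrl minus MOCK was -0.043 for SP100 and 0.16 for SP110, siMLL/AF4 minus MOCK was 0.18 for SP110 and 0.16 for XAF1, and the change per day was 0.048 for SP110. Day 6 against the earlier mean gave -0.019 for ISG20 and 0.18 for SP110. With no replicate block, siMLL/AF4 minus MOCK was 0.0073 for BST2, 0.024 for IFI35, 0.63 for IFI6, 0.36 for IRF7, 0.37 for ISG15 and 0.52 for XAF1, and siCtrl minus MOCK was 0.047 for IRF9, -0.20 for OAS3 and 0.51 for RSAD2. Leaving out 1 day at a time, with the brightest probe chosen anew (without day 6, another one for ADAR and OAS1 against MOCK, so that their turns join both changes), siMLL/AF4 minus siCtrl ranged from -0.42 to 0.15 for ADAR, -0.23 to 0.52 for SAMD9, -0.029 to 1.07 for DDX60, -0.24 to 0.45 for EIF2AK2, -0.0062 to 0.79 for HERC5, -0.11 to 1.01 for HERC6, -0.71 to 0.14 for MX1, -0.96 to 0.95 for OAS3, -0.32 to 0.82 for PARP14 and -0.044 to 0.39 for SP100. In the same way siMLL/AF4 minus MOCK ranged from -0.23 to 0.42 for IFI6, -0.44 to 0.19 for IRF7, -1.26 to 0.30 for ISG15, -0.36 to 0.35 for XAF1, -0.75 to 0.088 for IFITM1, -0.56 to 0.72 for ISG20, -0.086 to 1.07 for ADAR and -0.10 to 0.89 for OAS3. For siCtrl minus MOCK the median ranged from -0.58 to 0.024, HERC6 from -0.25 to 0.33, RIGI from -0.15 to 0.55, HERC5 from -0.0038 to 0.45, IFI44 from -0.20 to 0.18, IFIH1 from -0.18 to 0.36, OAS3 from -0.21 to 0.85, SP100 from -0.14 to 0.28, IFIT2 from -0.64 to 0.32, IRF9 from -0.66 to 0.090, OAS1 from -0.79 to 0.13 and OAS2 from -1.32 to 0.10. Dim probes limit the order of the lowest levels, and 1 array for every treatment and day limits the tests.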
